A study of Homo sapiens with 2 samples.

Results

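The isoforms described here are the transcripts of protein-coding genes that the annotation in the deposited table marks as targets of nonsense-mediated decay (NMD). They were chosen by label and not by level: transcript type nonsense-mediated decay, gene type protein-coding, assembled structure matching the annotated one completely, at least 200 bases long, and not on chromosome Y. Of the 202463 transcripts in the table, 9950 carry the NMD label and 7399 of them (3.65% of the table) met the rule. Another 2541 had an assembled structure other than a complete match, 3 lay in genes not called coding, 2 were too short and 5 were on chromosome Y. The 7399 NMD isoforms belong to 4016 genes, of which 2356 have 1 such isoform, 1442 have 2 to 4 and 218 have 5 or more.

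WI-38, an established line of normal human lung fibroblasts with a limited lifespan in culture, was grown in DMEM to replicative senescence and compared with an early passage of the line. The young library comes from cells at population doubling level (PDL) 20 and the senescent library from cells at PDL 52, with no other agent or genetic change named for either. Total RNA was sequenced after whole-transcript amplification. Each group holds 1 library, so no spread between cultures is known, no test was made, and every difference below is between 2 libraries.

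NMD is a surveillance pathway in which a ribosome that stops well upstream of an exon junction, where the exon junction complex still sits on the mRNA, recruits UPF1 and the SMG proteins, and the transcript is cut and degraded. Many splicing factors and ribosomal protein genes use it on purpose, by splicing in an exon with a stop codon (a poison exon) and so limiting their own protein. The NMD label is a prediction from transcript structure. Decay was not measured here, and a level in total RNA is the balance of synthesis and loss. In RNA from a whole culture, fewer cells making a transcript and less of it per cell cannot be told apart.

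The stop codons that carry the label are shown for isoforms that the results below turn on. Each line gives 30 bases of the transcript, 5′ to 3′, with the stop codon of its annotated reading frame in capitals. They were read from GENCODE release 29 transcripts (GRCh38) with the same Ensembl transcript ID and the same length as in the deposited table.
MMP3-003: agatgtgaaacagtttgtTAGgagaaagga
SBDS-005: actgaaatctattttgacTAAaggagaagt
TRAPPC4-011: gcctccatgttccactcgTAAgtcccccgt
SLC7A11-002: tactgggaaatttctcatTAGcagttccga
LYSMD3-004: acgtgttccatttctcaaTGAatgccatcg
RPL3-014: ccaactctgctctgctccTGAaggcataaa
KIF20A-007: ataagtatcagaaaatgtTAGaaccaccac
NCAPG-002: ctggcttatcagatgctgTGAaacaagcta
HMGN1-004: attcttcaaacacctaaaTGAaagtgataa
CLIC4-002: gccaaaagactcaccaagTAAaatcgcgtt
SRSF7-004: gcagaaaatttgagacggTGAtcgccgtaa
TRA2B-003: ttgaagctcaggaataagTGAagctgaaat
LGALS1-005: ttccagcaagcttcgtgcTGAacctgggca
ITGB1-014: atctgcgagtgtggtgtcTAGtgtcccact

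These stops arise in different ways. In MMP3-003, SBDS-005, KIF20A-007, NCAPG-002, SLC7A11-002, LGALS1-005 and ITGB1-014 the stop falls inside sequence that is coding in other isoforms of the gene, where it is not their stop. In RPL3-014, SRSF7-004, HMGN1-004, TRAPPC4-011 and LYSMD3-004 it lies in sequence outside the coding exons of the gene's coding isoforms. In TRA2B-003 and CLIC4-002 it is the stop of a coding isoform, followed by a further exon junction. The last junction lies 1650 bases after the stop in CLIC4-002, 1015 bases in TRA2B-003 and 161 bases in LGALS1-005.

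Among all 7399 members, 7078 had their transcript ID in release 29, 6530 also had the same length, and 6313 of these had an annotated stop codon. The stop lay inside coding exon sequence in 3104 of them, outside it in 2521, and at the stop of a coding isoform in 688. At least 50 bases separated the stop from the last exon junction in 97.4% of the NMD isoforms, against 0.989% of 10721 coding isoforms of the same genes. The label is itself a prediction from transcript structure, so this contrast describes how the members were chosen and is not independent support for the label. The median distance was 296 bases in the NMD isoforms and -117 bases in the coding ones, where a negative value means that the junction lies before the stop. The plot of these distances shows both sets meeting near 50 bases. The stop was TGA in 57.3% of NMD isoforms, TAA in 22.9% and TAG in 19.8%, against 49.6%, 29.2% and 21.1% in the coding isoforms.

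**Figure D1:**
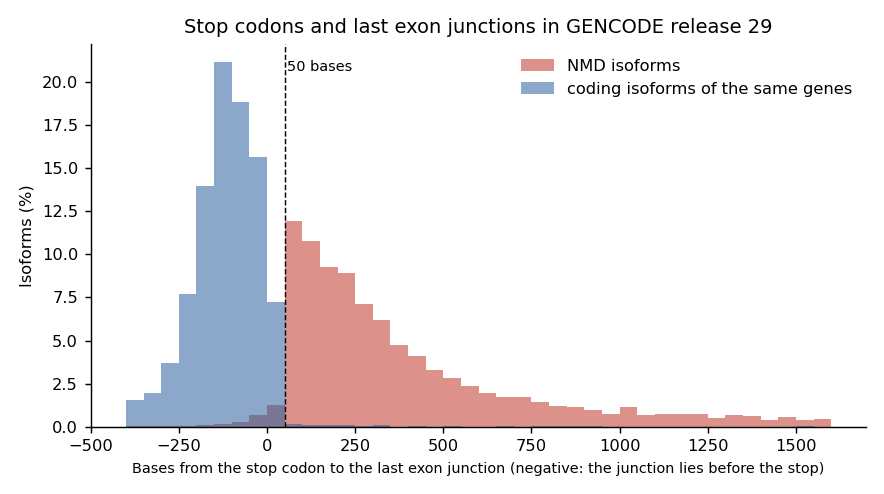
Distance in bases from the stop codon to the last exon junction (horizontal axis, bins of 50 bases) against the percentage of isoforms (vertical axis) for 6313 NMD isoforms (red) and 10721 coding isoforms of the same genes (blue), in GENCODE release 29; isoforms beyond the plotted range are left out. NMD isoforms lie mostly to the right of the dashed line at 50 bases (97.4%) and coding isoforms to its left. The label is a prediction from transcript structure, so this separation is not independent of it.

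Levels are in FPKM, a fragment count divided by transcript length and by the size of the library, and paired values give young cells before senescent ones. Most NMD isoforms were low. Of the 7399, 2476 were listed at 0 in both libraries and 2647 were above 0 but under 1 FPKM in both, which left 2276 (30.8%), in 1666 genes, with 1 FPKM or more in either or both. These 2276 are called measured. Their median was 2.39 FPKM in young and 2.31 in senescent cells. Only 71 reached 50 FPKM, and the 20 most abundant held 28.03% of all NMD isoform FPKM in young cells and 28.4% in senescent cells.

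The table's isoform levels come from Cufflinks, which divides fragments among overlapping isoforms of a gene, so a level of exactly 0 can be an outcome of that division: 147 measured members were listed at 0 in 1 library, 66 in the young and 81 in the senescent. The steps of low values gave effective depths of about 15900000 fragments for the young and 14800000 for the senescent library. At 843 bases, the median length of measured members, 1 fragment was worth 0.0978 and 0.105 FPKM, with 200 bases deducted from the length. All 9 fibroblast markers reached 1 FPKM in either library (summed coding level 5662 and 3805 FPKM), with COL1A1 at 1113 and 357. Of the other cell types, 3 of 6 epithelial markers (summed 13.1 and 12.5 FPKM), 1 of 4 endothelial markers with coding isoforms in the table (9.49 and 5.77) and 3 of 6 blood markers (16.4 and 23.4) reached 1 FPKM; among these KRT18 was at 4.87 and 10.1, TEK at 9.39 and 5.27, and CD68 at 14.3 and 21.1. THY1, a fibroblast surface marker, was at 84.6 and 126. SFTPC and CDH5 were listed at 0 in both libraries, and EPCAM and PTPRC stayed under 0.5 FPKM. SBDS has a near-identical pseudogene, HNRNPA1 and the ribosomal protein genes have many processed copies, and the strand of the reads is not given, so fragments could be shared with copies or antisense genes, and levels of these genes are uncertain. The part of other cells in the results was not tested.

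Among the 8 NMD isoforms of highest FPKM, LGALS1-005, from the gene of the secreted lectin galectin-1, was at 1724 FPKM in young and 960 in senescent cells. It made up 60.9% and 63.7% of the FPKM of the gene's NMD and coding isoforms together. ITGB1-014, from the integrin beta-1 gene, stood at 514 and 931 FPKM, with a log2 ratio of 0.86 that passes 2-fold (1.01) when libraries are scaled by their upper quartiles. UCHL1-010, from the gene of a ubiquitin hydrolase, was at 191 and 365 FPKM, with a log2 ratio of 0.93 that becomes 1.08 with upper quartiles and 1.06 with the median ratio. EIF4G2-021, from a translation initiation gene, was at 461 and 315 FPKM, RPS3-023 of the small ribosomal subunit at 355 and 221, and ACTG2-009 of smooth muscle gamma actin at 291 and 146. TNFRSF11B-002, from the gene of osteoprotegerin, was at 113 and 504 FPKM, and CALM2-002 of calmodulin at 91.3 and 274; the authors' deposited table marks the test of CALM2-002 as failed. Of these 8, TNFRSF11B-002 and CALM2-002 were more than 2-fold higher in the senescent library and the other 6 were within 2-fold on the reported scale.

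A member was called higher or lower at a log2 ratio of senescent over young, after adding 1 FPKM to both, of at least 1 or at most -1. By this rule of size 265 of the 2276 measured NMD isoforms (11.6%) were higher in the senescent library and 296 (13.01%) were lower, while 1715 were within 2-fold. The balance moved with scaling, to 338 higher and 261 lower with upper quartiles and 322 and 265 with the median ratio. Over all 42203 measured complete-match isoforms the shares were 10.7% higher and 12.3% lower, so the NMD isoforms stood near the background in both directions. Their median log2 ratio was -0.01 (quartiles -0.56 and 0.52), against -0.08 for all complete-match isoforms. The sign of that median is not fixed: it is 0.11 with upper-quartile scaling. Among other kinds of isoform of coding genes, 7.91% of 4992 retained-intron isoforms were higher and 13.98% lower, 10.3% and 12.01% of 6868 processed transcripts, and 12.7% and 13.4% of 22608 protein-coding isoforms; these differences were not tested. In 26 genes 1 NMD isoform was higher and another lower.

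**Figure D2:**
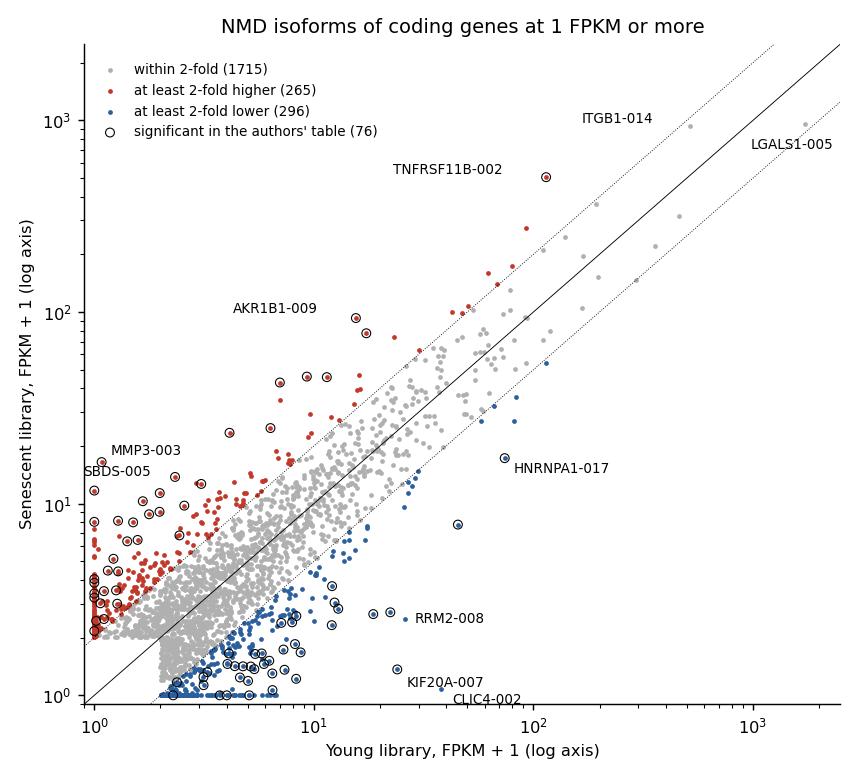
Each point is 1 of 2276 measured NMD isoforms, with its FPKM plus 1 in the young library (horizontal log axis) and in the senescent library (vertical log axis); the solid line marks equal values and the dotted lines 2-fold. Red points (265) are higher, blue points (296) lower, and black rings mark the 76 isoforms that the authors' deposited table calls significant.

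The NMD isoform with the highest ratio was MMP3-003 (chr11:102712983-102714338, hg19), from the gene of stromelysin-1, a matrix-degrading enzyme of the senescence secretome. It stood at 0.0798 FPKM in the young library, under the worth of a single fragment, and at 15.5 in the senescent. The coding sum of MMP3 was 0.0339 and 8.30 FPKM and so also higher; both young values are too low for a share. SBDS-005 (chr7:66452731-66460563, hg19), from a gene needed for ribosome maturation, was listed at 0 in the young library and stood at 10.7 FPKM in the senescent, where it was 27.96% of the gene (51.8% with complete-match coding isoforms only). PSMD2-008, from a proteasome subunit gene, was listed at 0 and stood at 7.04 FPKM, PTPN12-012 of a tyrosine phosphatase at 0 and 5.55, COPS7A-025 of the COP9 signalosome at 0 and 5.46, PEX19-004 of peroxisome assembly at 0 and 5.30, and ECHDC1-019, from a metabolic enzyme gene, at 0 and 6.34. For these 6 isoforms a fold cannot be given, and the authors' deposited table marks PTPN12-012 as having too little data for its test.

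TRAPPC4-011, from a gene of vesicle tethering, was at 0.283 and 7.14 FPKM, which was 1.48% of the gene in young cells and 26.9% in senescent cells. GMNC-002, from a gene related to geminin, stood at 0.663 and 9.30 FPKM. OBFC2A-003, from a single-stranded DNA binding protein gene now called NABP1, stood at 6.0 and 41.9 FPKM, 6.98-fold apart, yet its share of the gene was 18.99% and 18.7%. The authors' deposited table calls MMP3-003 (q = 0.00519), SBDS-005 (q = 0.0576), PSMD2-008 (q = 0.0995), TRAPPC4-011 (q = 0.00817), GMNC-002 (q = 0.00538) and OBFC2A-003 (q = 8.65e-05) significant at its q-value threshold of 0.1.

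At the other end stood CLIC4-002 (chr1:25071873-25170758, hg19), from the gene of an intracellular chloride channel protein, with 36.9 FPKM in young and 0.0746 in senescent cells. The authors' deposited table marks its test as failed. KIF20A-007 (chr5:137520517-137522932, hg19), from the gene of a mitotic kinesin needed for cytokinesis, was at 23.0 and 0.365 FPKM, and NCAPG-002, from a condensin subunit gene, at 7.30 and 0.220. RRM2-008, from the small subunit gene of ribonucleotide reductase, was at 25.1 and 1.497 FPKM; its test is marked as low in data in the authors' deposited table. C1R-012, from a complement protease gene, was at 21.3 and 1.71, and ENPP1-004, from the gene of an enzyme that makes pyrophosphate, at 17.6 and 1.65. The authors' deposited table calls KIF20A-007 (q = 5.57e-06), NCAPG-002 (q = 2.37e-05), ENPP1-004 (q = 0.000164) and C1R-012 (q = 0.00133) significant. HMGN1-004 of a nucleosome-binding protein, HOOK3-003 of a microtubule linker, LDB2-014 of a LIM-domain cofactor and RPS3-024 stood between 5.13 and 5.69 FPKM in young cells and were listed at 0 in senescent ones.

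In the authors' deposited table, 76 of the 3437 NMD isoforms with a completed test are significant, 37 higher and 39 lower. Over all 63037 complete-match isoforms with a completed test, 907 (1.44%) are higher and 1147 (1.82%) lower. The part of NMD isoforms called was thus smaller than this background in both directions, a difference that was not tested. Some of the 76 moved with their gene. Of the 37 higher in the authors' deposited table, the summed coding isoforms of the same gene were also at least 2-fold higher for 13, within 2-fold for 20 and at least 2-fold lower for 4. Of the 39 lower, the coding sum was also lower for 19 and within 2-fold for 20. Examples picked after their values were seen include AKR1B1-009, from the aldose reductase gene, at 14.5 and 91.9 FPKM, TM4SF1-005, from a tetraspanin-like membrane protein gene, at 16.3 and 76.4, and CD151-002, from a tetraspanin gene, at 5.34 and 23.8. Among the lower ones were A2M-010 of the protease inhibitor alpha-2-macroglobulin at 44.3 and 6.78 FPKM and FOXM1-005 of a cell-cycle transcription factor at 4.16 and 0.414. AKR1B1-009 was 80.6% of its gene in young cells and 81.7% in senescent cells.

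Whether an NMD isoform follows its gene was read from sums. For each gene the FPKM of its NMD isoforms was set beside the summed FPKM of its protein-coding isoforms. In 1628 genes both sums reached 1 FPKM in young or senescent cells. The NMD sum was at least 2-fold higher in 147 and lower in 168, and the coding sum was higher in 90 and lower in 167, where over all 11970 coding genes measured 6.62% were higher and 12.1% lower. Across these genes the log2 ratios of the NMD and coding sums had a Pearson r of 0.504 and a Spearman rho of 0.446, as a description of 1628 genes that share the same libraries. Both sums were higher in 34 genes and both lower in 71. The NMD sum alone was higher in 105 and lower in 94, and the coding sum alone was higher in 53 and lower in 88. Opposite 2-fold differences were seen in 11 genes, 8 with the NMD sum higher and 3 with it lower. No background share is given for the counts of NMD sums or of both sums together, so they are not read as particular to NMD isoforms.

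**Figure D3:**
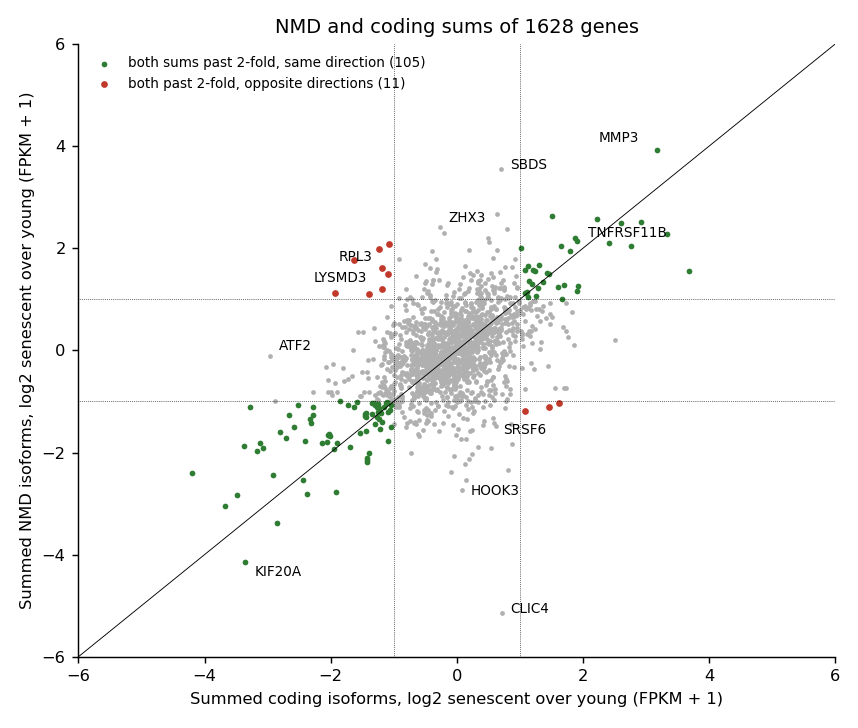
Each point is 1 of 1628 genes, with the log2 ratio of senescent over young of its summed coding isoforms (horizontal axis) and of its summed NMD isoforms (vertical axis), both after adding 1 FPKM; dotted lines mark 2-fold and the solid line equal ratios. Green points (105 genes) are past 2-fold in both sums in the same direction, red points (11 genes) in opposite directions.

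The difference between both log2 ratios, NMD minus coding, had a median of 0.09 (quartiles -0.34 and 0.53). It was 1 or more in 173 genes and -1 or less in 113; over NMD, retained-intron and processed-transcript sums combined, 8.20% and 6.52% lay that far out. When only coding isoforms that match the annotation completely were summed, the median was -0.00235, so its sign depends on which coding isoforms are counted. The coding sums took 28.4% of their FPKM in young cells and 27.5% in senescent cells from assembled isoforms of other classes.

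RPL3, of the large ribosomal subunit, had a higher NMD isoform and lower coding isoforms. Its NMD isoform RPL3-014 was at 1.83 FPKM in young and 7.67 in senescent cells, and its coding sum at 874 and 385 FPKM, so that the NMD isoform was 0.209% and 1.96% of the gene. CLIC4 showed the opposite: the NMD isoform was 43.8% of the gene in young cells and 0.0956% in senescent cells, while the coding sum was 47.3 and 78.0 FPKM. HOOK3 had coding sums of 25.04 and 26.6 FPKM beside an NMD isoform at 5.61 and 0. ZHX3, of a zinc-finger homeobox repressor, had its NMD isoform at 0.502 and 6.99 FPKM and its coding sum at 72.6 and 59.9. The complete-match coding isoforms of ZHX3 alone were at 22.96 and 24.2 FPKM, not lower in senescent cells. The authors' deposited table gives q = 0.00138 for ZHX3-011, an isoform that release 29 types as protein-coding. In ASAP1, which regulates small GTPases at focal adhesions, 3 NMD isoforms summed to 2.29 and 15.2 FPKM beside a coding sum of 71.8 and 62.5.

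The NMD share is the NMD sum as a percentage of the NMD and coding sums together. It could be read in 1411 genes with a total of 5 FPKM or more in each library and an NMD sum that reached 1 FPKM in either. The median share was 19.6% in young cells and 20.2% in senescent cells, and the shares of the libraries had a Pearson r of 0.922 across these genes. The NMD isoforms held most of the gene (over 50%) in 233 genes in young cells and 243 in senescent cells, 195 of them shared. The share was higher in the senescent library by 10 percentage points or more in 181 genes (12.8%) and lower by as much in 129 (9.14%). Over the shares of NMD, retained-intron and processed-transcript isoforms together, 10.3% were that much higher and 8.0% that much lower. With complete-match coding isoforms only, 152 genes were higher and 157 lower, and the excess on the higher side was gone. Pooled over all 4016 genes, NMD isoforms held 16.9% of the FPKM in young and 17.1% in senescent cells.

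**Figure D4:**
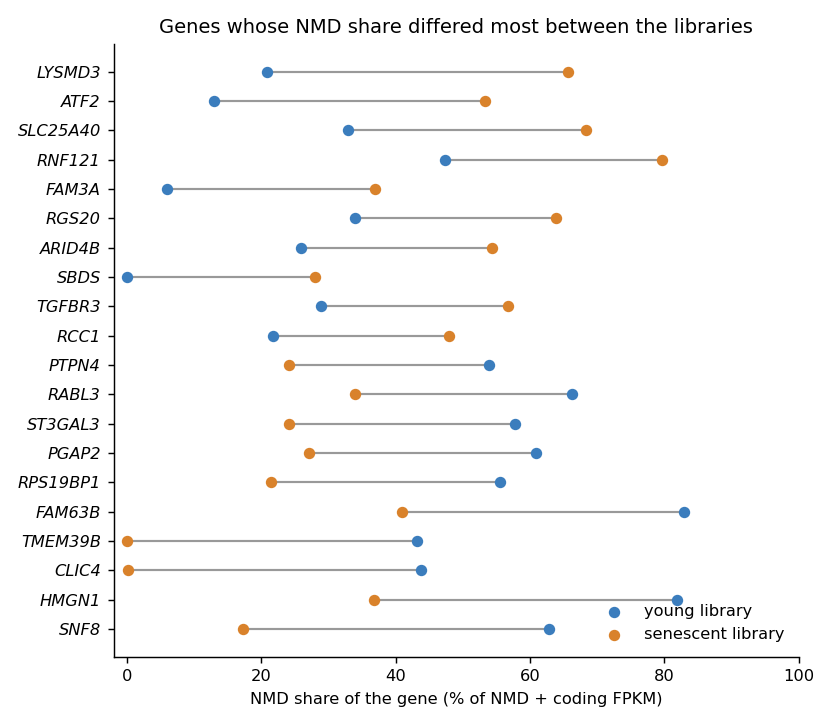
NMD share of the gene, in percent of NMD plus coding FPKM (horizontal axis), in the young (blue) and senescent (orange) library for the 10 genes with the largest differences in each direction. Shares run from 0 to over 80% and every gene plotted differs by more than 25 percentage points.

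Higher NMD shares in senescent cells went with higher NMD sums in some genes and with lower coding sums in others. Of the 181 genes higher by 10 points or more, 49 had the NMD sum at least 2-fold higher. The coding sum was at least 2-fold lower in 36, with 3 genes in both counts. In the other 99 neither sum was past 2-fold. In LYSMD3, which codes for a membrane protein with a LysM domain, the NMD isoform was at 2.63 and 7.31 FPKM and the coding sum at 9.98 and 3.84, a share of 20.9% and 65.6%. SBDS and FAM3A, a cytokine-like gene, had higher NMD sums: FAM3A stood at 0.312 and 1.93 FPKM, or 6.01% and 37.0% of the gene. Of the senescent sum 1.24 FPKM came from FAM3A-011, which release 29 types as protein-coding. ARID4B of a chromatin-binding repressor complex (25.9% and 54.4%), TGFBR3 of the TGF-beta coreceptor betaglycan (28.8% and 56.7%) and RCC1 of the nucleotide exchange factor of Ran (21.7% and 47.9%) had lower coding sums. In TGFBR3 the coding sum was 12.6 and 2.89 FPKM, and the NMD sum 5.12 and 3.79. In RCC1 the isoform RCC1-009, at 2.50 and 4.25 FPKM, is a processed transcript in release 29.

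Of the 10 largest share differences on the higher side, 4 were below 10 points or turned when only complete-match coding isoforms were summed. In 3 of these the complete-match coding isoforms were under 1 FPKM in both libraries. For RGS20 and SLC25A40 the NMD and coding total was then under 5 FPKM in both libraries, too low for a share to be read. ATF2, a stress-responsive transcription factor, had an NMD share of 12.9% and 53.3%, with a coding sum of 109 and 13.2 FPKM and an NMD sum of 16.2 and 15.03; with complete matches, at 17.6 and 12.7 FPKM, the share difference was 6.29 points. RNF121, a ubiquitin ligase of the secretory pathway, had 47.4% and 79.6%. Its complete-match coding isoforms were at only 0.506 and 0.537 FPKM, and with these the share difference was 2.65 points. RGS20, which speeds up G-protein inactivation, had 33.9% and 63.8%, and its complete-match coding isoforms were listed at 0 in both libraries. SLC25A40, a mitochondrial carrier, had 32.9% and 68.4%, and its complete-match coding isoforms were under 1 FPKM in both libraries.

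Of the 129 genes with a share lower by 10 points or more, 48 had the NMD sum at least 2-fold lower. The coding sum was at least 2-fold higher in 17, with 1 gene in both counts, and in the other 65 neither sum was past 2-fold. Lower NMD shares in the senescent library were led by SNF8, of the ESCRT-II complex that sorts membrane cargo. Its NMD sum was 5.52 and 1.42 FPKM, its coding sum 3.27 and 6.75, and its share 62.8% and 17.3%. HMGN1 had an NMD sum of 12.7 and 2.64 FPKM and a coding sum of 2.81 and 4.54, a share of 81.9% and 36.8%. TMEM39B had its NMD isoform at 3.35 FPKM in young cells and was listed at 0 in senescent ones, with a coding sum of 4.41 and 5.17. FAM63B, of a deubiquitinase, had a share of 82.9% and 40.9%, and ST3GAL3, of a sialyltransferase, one of 57.7% and 24.1%. PGAP2, which remodels GPI anchors, had a share of 60.9% and 27.1%, RPS19BP1 55.6% and 21.4%, RABL3 66.2% and 33.9%, and PTPN4, of a tyrosine phosphatase, 53.9% and 24.1%. In PGAP2 most of the difference was in the coding sum, at 3.20 and 10.4 FPKM.

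The NMD machinery itself was measured through its coding sums. UPF1, the helicase at the core of the pathway, was at 7.53 and 9.56 FPKM, and UPF2, which links it to the exon junction complex, at 17.1 and 13.7. The bridging factors UPF3A and UPF3B were at 34.2 and 20.5 and at 8.13 and 3.83 FPKM. SMG1, the kinase that phosphorylates UPF1, was at 17.7 and 13.4, and its partners SMG8 and SMG9 at 5.34 and 7.39 and at 6.96 and 5.69. The endonuclease SMG6 was at 74.4 and 39.5 FPKM, and the adaptor SMG5 at 14.5 and 22.4. On the scale with 1 FPKM added none of the 19 NMD factors listed was past 2-fold in either direction, although UPF3B is past it as a plain ratio of FPKM, and their median log2 ratio was -0.31, against -0.13 for all coding sums. Only 2 of the 19 genes have NMD isoforms that met the rule. DHX34, a helicase that acts with UPF1, had its NMD isoforms at 0.787 and 1.09 FPKM, a share of 11.3% and 19.3%. The difference of 8.04 points becomes 13.4 points with complete-match coding isoforms. Those were at only 0.940 and 0.761 FPKM, too low for a share to be read.

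Exon junction complex and cap-binding genes had 3 measured NMD isoforms, 0 higher and 1 lower, MAGOHB-007 at 1.81 FPKM in young cells and listed at 0 in senescent ones. NCBP1, the large subunit of the nuclear cap-binding complex, had its NMD isoform at 25.7 and 23.5 FPKM beside a coding sum of 43.9 and 30.1, a share 6.89 points higher in senescent cells that turned to -7.28 points with complete-match coding isoforms (11.97 and 15.06 FPKM). MAGOHB had NMD isoforms at 3.48 and 1.42 FPKM in sum and coding isoforms at 0.910 and 0.764. Among RNA decay enzymes, 11 NMD isoforms were measured, of which CNOT8-009 was higher (0.299 and 2.62 FPKM) and 0 were lower, and the NMD share was higher by 10 points in 2 of 9 genes. These were CNOT8, a deadenylase, with an NMD sum of 0.659 and 3.14 FPKM, and DIS3L, a cytoplasmic exosome nuclease, with a share of 27.9% and 53.8%, a difference of 25.9 points that becomes 3.30 points with complete-match coding isoforms, which were at only 0.927 and 1.06 FPKM. The exonuclease XRN1 had an NMD share of 31.2% and 33.4%, and LSM1, which promotes decapping, of 97.9% and 93.5%. The coding sum of LSM1 was at only 0.235 and 0.826 FPKM, so its share rests on how fragments were divided among isoforms.

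SR proteins, splicing activators whose genes carry poison exons, had 7 measured NMD isoforms in 5 genes. SRSF6-002, SRSF7-003 and SRSF7-004 were lower by the 2-fold rule and 0 were higher. The median log2 ratio was -0.74, while 0 of their 12 measured coding sums was past 2-fold and the median of those was -0.40. SRSF6 had its NMD isoform at 24.7 FPKM in young and 8.59 in senescent cells and its coding sum at 3.16 and 5.24, a share of 88.7% and 62.1%. TRA2B had its NMD isoform at 9.97 and 5.85 FPKM and its coding sum at 4.81 and 7.03, a share of 67.5% and 45.4%. SRSF7 had a share of 22.2% and 13.3%, with SRSF7-004 at 16.4 and 6.45 FPKM. In SRSF3 the NMD isoform was at 48.0 and 28.4 FPKM and the coding sum at 54.6 and 29.01, so the share was 46.8% and 49.4%, and in TRA2A it was 31.5% and 40.1%. The SR genes differed among themselves: the share was lower in 3 and higher in 2.

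HnRNP and polypyrimidine-tract binding proteins, which often oppose SR proteins at splice sites, had 8 measured NMD isoforms, 0 higher and 3 lower (HNRNPA1-017, HNRNPH1-017 and HNRNPH1-050). HNRNPA1-017 was at 72.9 FPKM in young and 16.3 in senescent cells, and the coding sum of HNRNPA1 at 71.9 and 26.2. The authors' deposited table gives q = 0.0256 for HNRNPA1-017, whose transcript ID is missing from release 29. HNRNPH1 had 4 NMD isoforms at 33.0 and 16.1 FPKM in sum, nearly in step with a coding sum of 217 and 118, and the share was 13.2% and 12.01%. HNRNPA2B1 had 6.55% and 8.85%. Of the other splicing factors, 31 NMD isoforms were measured, 2 higher (LUC7L-004 and DDX39B-022) and 8 lower. LUC7L3, of the U1 snRNP, had NMD isoforms at 56.5 and 39.2 FPKM, or 73.8% and 68.8% of the gene. RBM6 stood at 11.8 and 3.12 FPKM in its NMD sum and MBNL2, a muscleblind splicing regulator, at 5.32 and 4.13, with shares of 22.3% and 10.6% and of 35.9% and 18.97%; with complete-match coding isoforms the share of RBM6 was 18.99 points lower. LUC7L went the other way, with 11.4% and 25.2%.

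**Figure D5:**
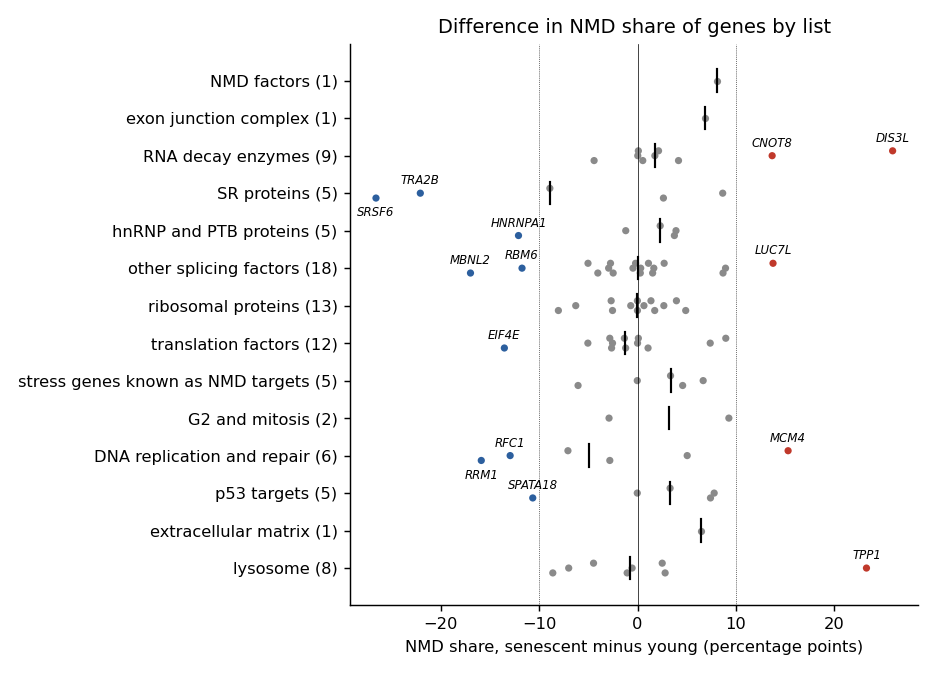
Each point is 1 gene, placed by its NMD share in the senescent minus the young library in percentage points (horizontal axis) within its list (vertical axis, number of genes with a readable share in brackets); black bars are list medians and dotted lines mark 10 points. The SR proteins SRSF6 and TRA2B lie furthest to the left and the decay enzyme DIS3L and the lysosomal TPP1 furthest to the right.

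Ribosomal protein genes had 21 measured NMD isoforms, 1 higher (RPL3-014) and 5 lower (RPL14-004, RPS3-015, RPS3-024, RPS9-009 and RPS25-005). Their median log2 ratio was -0.49, and that of the 79 coding sums -0.47. With upper-quartile scaling 3 were lower. RPS25, of the small subunit, had NMD isoforms at 280 and 159 FPKM in sum, 76.0% and 73.3% of the gene, and RPL35A at 92.3 and 54.3, or 43.7% and 37.4%, where isoforms of 500 bases or more alone differ by 0.452 points in the other direction. RPS3 held 6 NMD isoforms that summed to 424 and 255 FPKM, beside a coding sum of 524 and 258. RPL14-004 stood out from its gene, at 11.1 FPKM in young and 1.32 in senescent cells with a coding sum of 107 and 100.3; the authors' deposited table gives q = 0.024. None of the 13 ribosomal genes with a readable share differed by 10 points.

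Translation factors had 21 measured NMD isoforms, 1 higher (EIF3E-006) and 4 lower (EIF3E-005, EIF3F-004, EIF4G1-004 and PABPC1-014). The NMD share of EIF4E, the cap-binding initiation factor, was 47.6% and 34.1%, with its NMD isoform at 7.80 and 4.97 FPKM. EIF4A2, an initiation helicase, had its NMD isoforms at 36.9 and 63.8 FPKM, a share of 51.0% and 59.9%. EIF3H had 47.1% and 54.5%, a difference that turns to -2.72 points when only isoforms of 500 bases or more are kept. EIF4G2 had 35.1% and 32.6%, and PABPC1, the cytoplasmic poly(A)-binding protein, 18.9% and 16.1%. Within PABPC1, PABPC1-014 was at 80.3 and 25.9 FPKM and PABPC1-024 at 196 and 151.

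Genes of the cell cycle had few measurable NMD isoforms, and most were lower along with their genes. Of 4 measured in the G2 and mitosis list 0 were higher and 3 lower (KIF20A-007, NCAPG-002 and ANLN-008), and 36 of the 40 coding sums of that list were lower. The coding sum of KIF20A was 29.01 and 1.93 FPKM and that of NCAPG 3.75 and 0.267. CDC27, of the anaphase-promoting complex, was the other gene, with its NMD isoform at 1.62 and 3.70 FPKM and its coding sum at 20.9 and 18.8. That isoform, CDC27-003, is a retained-intron transcript in release 29. In the DNA replication and repair list 7 of 11 NMD isoforms were lower and 0 higher, beside 33 of 46 coding sums lower. RRM1, the large subunit gene of ribonucleotide reductase, had NMD isoforms at 9.02 and 1.47 FPKM and a share of 43.3% and 27.5%. In MCM4, of the replicative helicase, the NMD isoform was at 14.3 and 4.70 FPKM and the coding sum at 29.1 and 5.03, so that its share was higher in the senescent library, at 33.0% and 48.3%. RRM1-014, one of the RRM1 isoforms, is marked as low in data in the authors' deposited table. For RRM2 the NMD and coding total was under 5 FPKM in senescent cells, so no share was read.

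Lysosomal genes had 13 measured NMD isoforms, 4 higher, among them ATP6V1H-013, IDS-003 and IDS-005, and 0 lower, and 12 of their 31 coding sums were higher. IDS, which degrades heparan and dermatan sulfate, had NMD isoforms at 8.91 and 23.6 FPKM and a coding sum of 23.6 and 55.3, a share of 27.4% and 29.9%. TPP1, a lysosomal peptidase, had its NMD isoform at 20.5 and 36.8 FPKM while its coding sum was 51.7 and 34.4, a share of 28.4% and 51.7%. With complete-match coding isoforms, at 30.3 and 34.4 FPKM, the difference of 23.2 points becomes 11.3 points. NEU1, the lysosomal sialidase, was 88.0% and 90.8% NMD isoform. When only isoforms still of NMD type in release 29 are kept, its share is 21.6 points higher in the senescent library. That setting drops NEU1-003, at 17.6 and 17.9 FPKM, and leaves a young total under 5 FPKM, too low for a share to be read. GUSB, beta-glucuronidase, had NMD isoforms at 1.69 FPKM in young cells and was listed at 0 in senescent ones.

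Stress genes whose mRNAs are known NMD targets, such as those of the amino acid response, had 8 measured NMD isoforms, 2 higher (SLC7A11-002 and UPP1-010) and 1 lower (UPP1-006); with upper-quartile scaling 4 were higher. SLC7A11-002, from the gene of the cystine importer, was at 2.07 FPKM in young and 11.7 in senescent cells, and the coding sum at 16.1 and 52.97. The authors' deposited table gives q = 0.0968 for SLC7A11-002. ATG12, of autophagosome formation, had a share of 55.4% and 49.3%. MDM2, the ubiquitin ligase of p53, had NMD isoforms at 4.20 and 4.10 FPKM beside a coding sum of 172 and 170. Among p53 targets 1 of 6 NMD isoforms, FAS-012, was higher and 0 were lower. FAS, a death receptor, had NMD isoforms at 1.11 and 2.13 FPKM, and RRM2B, a p53-induced ribonucleotide reductase subunit, at 0.710 and 2.41, with shares of 5.47% and 12.9% and of 9.44% and 17.2%. SPATA18, a p53-induced gene of mitochondrial quality control, had a share of 26.9% and 16.3%, the only p53 target past 10 points. In the extracellular matrix list 20 of 34 coding sums were lower, but only 1 NMD isoform was measured, P4HA2-019 of a collagen prolyl hydroxylase, at 13.4 and 13.97 FPKM.

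The ratios were also read by the features behind the label. By distance from the stop to the last junction, the 49 measured members at under 50 bases had a median log2 ratio of -0.02. Those at 50 to under 150 bases had 0.06, those at 150 to under 500 bases 0.01, and those at 500 bases or more -0.12. In the last of these groups 9.70% were higher and 14.95% lower. They were also longer, with a median length of 2275 bases against 703 in the group at 50 to under 150 bases, and among members of 2000 bases or more 10.05% were higher and 15.8% lower; length and distance cannot be told apart here. Members with 1 junction after the stop had 14.3% higher and 11.9% lower, those with 2 to 3 had 10.3% and 12.2%, and those with 4 or more had 12.03% and 15%. Over all 2276 measured members the shares were 11.6% and 13.01%. By stop codon, TAG members had 13.8% higher and 10.6% lower, TGA members 11.9% and 13.3%, and TAA members 10.6% and 14.04%. By class of the stop the medians were 0.01 for stops inside coding exon sequence, -0.02 for stops of a coding isoform and -0.04 for stops outside coding sequence. Where release 29 marks the 5′ end as incomplete, 8.44% were higher and 13.7% lower, against 12.9% and 12.9% where it is complete. Their median lengths were 759.5 and 1299.5 bases. KIF20A-007, SLC7A11-002 and ITGB1-014, whose stops are shown above, are among the incomplete ones.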

How the data were processed

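The authors' deposited table of transcripts holds an FPKM per library (young and old, per the file headers); the old column was taken as the senescent sample. The submitters' processing notes name TopHat2 2.0.6, Cufflinks 2.0.2, Cuffdiff and hg19; the annotation and strand are not given in the sources used here. The authors also deposited a fold (the ratio of both columns, with 1 added to both where either is 0), a p-value and a q-value per transcript; significance there means a completed test with q under 0.1.

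Python 3.11.15, pandas 2.3.3 and NumPy 2.4.6 were used. Ratios are log2 with a pseudocount of 1 FPKM, which understates differences of low isoforms. With 1 library per group no test was made. A coding sum holds all rows of protein-coding transcript type of the gene, of any class. The scripts were tested on simulated data. Effective depth was read from values of fewer than 10 fragments, of which 84.4% of 716 (young) and 88.8% of 1073 (senescent) were whole within 0.05, against 10% by chance.

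The members, the 14 gene lists and the settings were chosen with earlier results of these data known. Named were the 10 isoforms at each end of the ratio at 5 FPKM or more, the 8 of highest FPKM, the 10 genes at each end of the share difference, up to 5 genes per list and 10 NMD factors. Also named were the 5 genes whose NMD and coding log2 ratios, opposite in sign, lay farthest apart, however small the coding one. Genes in the lists that could not be found by symbol were DCP1A, SRSF8 and PNISR, and the marker PECAM1 had no coding isoform in the table. Some items that this rule names are not reported here.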

Additional observations from a re-analysis of the deposited data

How the results depend on the processing

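With 1 library per group nothing here measures variation between cultures, and isoform levels rest on how fragments were divided. No paired analysis was possible because each group has 1 sample and no test was made. Scaling multiplies senescent FPKM by 1.11 (upper quartiles) or 1.09 (median ratio), which is 0.15 or 0.13 in log2 of FPKM and less for low isoforms once 1 FPKM is added. The setting limited to isoforms of NMD type in release 29 was chosen after seeing the data. A pseudocount of 0.1 gave 404 higher and 481 lower isoforms, a median of -0.0193 and a median gap (NMD minus coding log2 ratio) of 0.0715. A 5 FPKM minimum gave 97 higher and 83 lower isoforms, a median of 0.0575, a gap of 0.0521, 79 shares up and 64 down, and a pooled share difference of -0.254 points. The median turned to 0.11 with upper quartiles (gap 0.0608) and 0.0915 with the median ratio (gap 0.0665). The pooled difference, 0.167 points as reported, was 0.0949 with no minimum (gap 0.0722), -0.139 with completed tests only, -0.0132 with isoforms above 0 in both libraries (gap 0.10), 0.857 at 500 bases or more, -0.00826 with complete-match coding sums (gap -0.00235) and -4.45e-06 with release 29 types (gap 0.0803). Its sign is therefore not settled. With complete-match coding sums the share differences of SLC25A40 and RRM2 turned to -13.7 and 9.46 points, where the total was under 5 FPKM in 1 or both libraries, and those of NCBP1 and BCLAF1, which were under 10 points, turned to -7.28 and 2.39. Of 389 single-gene comparisons 366 kept their sign and their side of 10 points, as 81 of 84 single isoforms did for 2-fold, and 412 of 448 list counts stayed within 1.5 times. The cause of these shifts was not tested.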
